A study of Mus musculus with 6 samples.

Results

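The ADAM, ADAMTS, MMP and TIMP genes encode the secreted and membrane-bound metalloproteinases of the cell surface and the extracellular matrix, with their tissue inhibitors. They were taken from the table of gene counts as all protein-coding genes whose symbol is one of these family names followed by a number, and the ADAMTS-like (ADAMTSL) genes were included. There were 83 such genes among 21764 protein-coding genes: 33 ADAM, 19 ADAMTS, 5 ADAMTSL, 22 MMP and 4 TIMP genes. The data were RNA sequencing libraries of the cardiac side population (SP), cells of the heart that expel a fluorescent dye for DNA, and the comparison asked how the RNA of these cells differs in the absence of Flt3 ligand. Of the 6 libraries, 3 came from wild-type C57BL/6NRj mice (wt) and 3 from mice labelled flt3L-/- (strain C57BL/6Flt3Ltml/mx), all aged 8 to 12 weeks. Cells of 4 mice were pooled for a library after cardiomyocytes and erythrocytes had been depleted, so that the replicate was a pool and not a mouse. A wt sort and an flt3L-/- sort were made on 22 August 2016 (pair 1), 24 August 2016 (pair 2) and 29 August 2017 (pair 3).

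MMPs and ADAMTS proteases cut proteins of the extracellular matrix, ADAMs cut membrane proteins close to the cell surface and release their outer parts, and TIMPs bind the active site of these enzymes and block it. In the heart, fibroblasts are a main source of fibrillar collagen, which is secreted as procollagen and can form fibres only after its ends have been cut off. Metalloproteinases of this kind share a catalytic zinc ion, held by 3 histidines around a glutamate, whereas ADAMTSL proteins resemble ADAMTS proteases without being enzymes.

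To show what marks an active enzyme in this group, and how the families differ there, the coding sequence of the zinc-binding site (33 bases) was read from the longest coding transcript of each gene in GENCODE M21, build GRCm38. Capitals mark the codons of the 3 histidines and, next to the first, of the glutamate. Shown are the procollagen N-proteinases Adamts2, Adamts14 and Adamts3, whose difference between the groups is described first, the most abundant ADAMTS gene Adamts1, the gelatinase Mmp2, the membrane-type Mmp16, the neutrophil collagenase Mmp8, and the most abundant ADAM gene Adam15.
Adamts2: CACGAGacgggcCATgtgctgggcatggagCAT
Adamts14: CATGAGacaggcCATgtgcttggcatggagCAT
Adamts3: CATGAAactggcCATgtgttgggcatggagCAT
Adamts1: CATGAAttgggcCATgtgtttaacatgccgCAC
Mmp2: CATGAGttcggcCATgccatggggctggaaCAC
Mmp16: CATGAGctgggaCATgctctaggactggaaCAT
Mmp8: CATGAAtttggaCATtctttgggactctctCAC
Adam15: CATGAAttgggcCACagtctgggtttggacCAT
The sites of Adamts2 (chr11:50775403-50776134, plus strand), Adamts14 (chr10:61225465-61227123, minus strand) and Adamts3 (chr5:89707433-89707818, minus strand) were each split by an intron, between exons 7 and 8 in the first 2 genes and between exons 8 and 9 in Adamts3. The site of Adamts1 (chr16:85799191-85799545, minus strand) was split between exons 3 and 4. Those of Mmp2 (chr8:92839279-92839311, plus strand), Mmp16 (chr4:18051748-18051780, plus strand), Mmp8 (chr9:7563086-7563118, plus strand) and Adam15 (chr3:89344780-89344812, minus strand) lay within a single coding exon, which was exon 8, exon 5, exon 5 and exon 11.

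The site was present in 61 of the 83 genes (73.5%), against 0.441% of 21747 coding sequences of all protein-coding genes. All 19 ADAMTS sites were split between 2 exons, all 22 MMP sites lay within 1 exon, and of the 20 ADAM sites only that of Adam10 was split. The sites of Adamts2 and Adamts14 differed at 3 of the 33 bases and those of Adamts2 and Adamts3 at 4, whereas those of Adamts1 and Adamts2 differed at 11. The usual metzincin consensus, which has a glycine between the last 2 histidines, was found in 55 genes. In Adamts1, Adamts4, Adamts8, Adamts9, Adamts15 and Adamts20 another residue stood in place of this glycine. No site was found in the 5 ADAMTSL genes, in the 4 TIMP genes and in 13 ADAM genes, among them Adam11, Adam22 and Adam23, whose products bind other proteins at the cell surface without being proteases. The sites of Adam1a and Adam1b were identical.

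Total counts lay between 24370913 and 31145519 per library, and the genes of these families together took 0.819% to 1.20% of them. Levels are given as CPM, that is, counts scaled to the sum over protein-coding genes and adjusted with TMM factors, and 3 counts in a library were 0.109 to 0.127 CPM. The targeted gene Flt3l had 8.67, 10.8 and 12.1 CPM in wt pairs 1, 2 and 3 and was no lower in the libraries labelled flt3L-/-, with 13.6, 12.4 and 14.4 CPM. The part of the gene that the allele removes was not looked up here, and 22.1% of its exon bases also belong to Gm45713, so directions below are those of libraries labelled flt3L-/-. Marker lists of cell types showed mainly fibroblast (summed level 9897 to 42148 CPM) and endothelial RNA (7489 to 12013 CPM), with far less of pericytes and smooth muscle (274 to 899.7 CPM). Macrophage and monocyte markers varied widely (50.2 to 1731 CPM), as did those of lymphocytes and NK cells (105 to 771 CPM). These sums are over different genes and were not scaled to gene length. In such bulk samples, fewer cells of a type and less RNA per cell cannot be told apart.

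Of the 83 genes, 52 had more than 1 CPM in at least 2 libraries and were tested among 13475 genes: 13 ADAM, 15 ADAMTS, 5 ADAMTSL, 15 MMP and 4 TIMP genes. Of these, 2 (Mmp12 and Mmp25) passed this filter through wt libraries alone. Among the 31 genes not tested, 18 had at most 3 counts in every library, and Adam6a, Adam20, Adam24, Adam26a, Adamts16, Mmp1b and Mmp7 had none. A group of 9 MMP genes lies between 7272514 and 7699585 on chromosome 9, and 3 of them were tested (Mmp3, Mmp8 and Mmp12). The neighbouring Mmp10, which cuts matrix proteins much as Mmp3 does, had 10 to 37 counts. None of the 4 genes Adam20, Adam24, Adam25 and Adam39, which lie together on chromosome 8, had more than 2 counts. Adamts17 had 15 to 41 counts and Mmp27 had 18 to 26 counts, and neither passed the filter.

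Per kilobase of exon, the inhibitor Timp3 had the highest mean level (555 CPM per kilobase), followed by the aggrecan- and versican-cutting protease Adamts1 (369), Timp2 (152), Adam15 (136), Mmp2 (133) and the stromelysin Mmp3 (85.1), all in CPM per kilobase. Single genes dominated their families. Timp3 held 71.1% of the summed level of the TIMP genes per kilobase, Adamts1 84.9% of that of the ADAMTS genes, and Adam15 50.7% of that of the ADAM genes. Among MMPs, Mmp2 held 45.1% and Mmp3 28.9%. The sheddases Adam10 (54.9 CPM per kilobase), Adam9 (34.0) and Adam17 (32.3) were the next ADAM genes. Adam10 and Adam17 varied little over the 6 libraries, with a highest level 1.47 and 1.43 times the lowest. The plot of levels per kilobase shows that the order within a family often lay inside the spread of the libraries. Adam9 and Adam17 overlapped, and so did Mmp23 and Mmp14, and Adamts5, Adamts8 and Adamts9. Adamts1 stood above every other ADAMTS gene in each library.

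**Figure D1:**
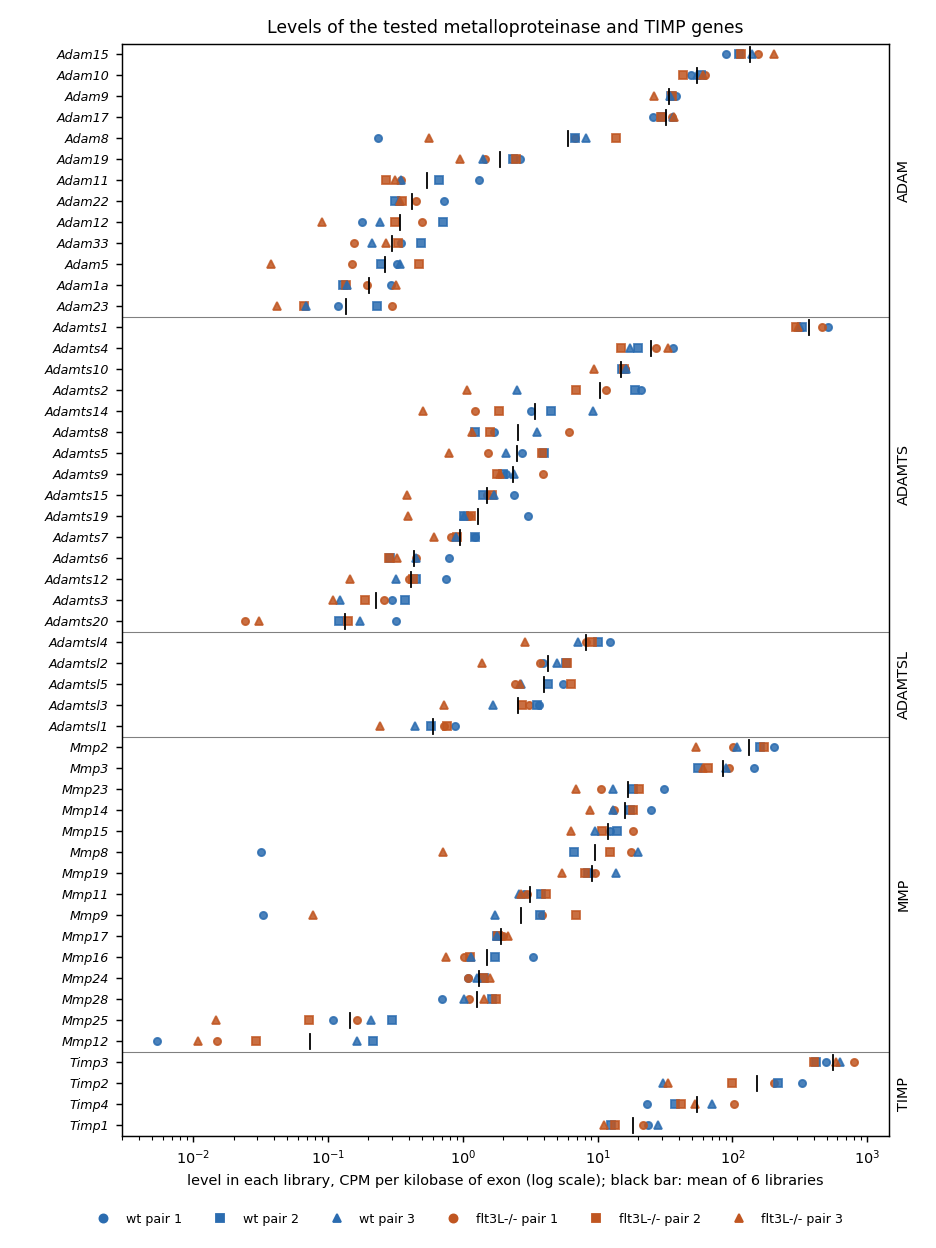
Level of each of the 52 tested genes in the 6 libraries, in CPM per kilobase of exon on a log axis, by family, with circles, squares and triangles for pairs 1, 2 and 3, blue for wt, orange for flt3L-/- and a black bar for the mean. Timp3 and Adamts1 have the highest means (555 and 369 CPM per kilobase), and Mmp8, Mmp9 and Adam8 spread most widely, with wt pair 1 and flt3L-/- pair 3 far to the left.

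Between the groups, none of the 52 genes had an adjusted p under 0.05 in edgeR's quasi-likelihood test, which had the date of the sort as a second term, with Benjamini-Hochberg adjustment over all genes tested. The background was the same, with 0 of 13475 genes called (0%), and the smallest adjusted p was 0.973. Unadjusted p-values under 0.05 belonged to 4 of the 52 genes (7.69%), Adamts2, Adamts14, Mmp16 and Adamtsl4, against 3.59% of all genes tested. All 4 were lower in flt3L-/-, where the background for lower genes was 2.49%, and none was higher (background 1.11%). Without the sorting date in the fit the number was again 4 of 52, all lower (background 169 of 13475 genes lower, and 1.94% in either direction). Of the genes named above, Adamts14 (unadjusted p = 0.00603, edgeR) and Mmp16 (unadjusted p = 0.0325) were still among them, and Adamts2 and Adamtsl4 were not. With DESeq2 in place of edgeR, 1 of the 52 genes, Adamts2, had an adjusted p under 0.05 (21 genes in all, 0.156%).

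Most of the fitted differences were below 0. The log2 fold change (flt3L-/- against wt) was negative for 36 of the 52 genes (69.2%) and for 6742 of all 13475 genes, with a median of −0.42 against −0.00027. This median was −0.22 in pair 1, 0.0014 in pair 2 and −0.60 in pair 3, so that pair 2 did not share it. By family, the median log2 fold change was −0.52 for ADAMTS, −0.59 for ADAMTSL, −0.32 for MMP, −0.16 for ADAM and −0.13 for TIMP genes. The 36 genes, the median over all 52 and the MMP median include Mmp12 and Mmp25 (log2 fold changes −2.29 and −1.55). Both passed the filter through wt libraries alone, so a negative value was favoured in advance. Without pair 3 the MMP median was 0.019, without pair 2 the ADAM median was 0.13, and without pair 3 the TIMP median was 0.15. The ADAMTS and ADAMTSL medians stayed negative whichever pair was left out (−0.67 to −0.44 and −0.73 to −0.29).

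Lower in each of the 3 pairs were 12 of the 52 genes (23.1%, background 11.5%). They were Adam11, 8 ADAMTS genes (Adamts1, Adamts2, Adamts3, Adamts5, Adamts6, Adamts7, Adamts12 and Adamts14), Adamtsl3, Adamtsl4 and Mmp16. Some were barely lower, with Adamts1 at log2 differences of only −0.15 to −0.051. In pair 2, Adamts5, Adamts6 and Adamts12 were at only −0.046, −0.027 and −0.053. Higher in each pair were Adam15, Mmp11, Mmp17 and Mmp28, 4 of 52 genes (7.69%, background 14.2%). Of these, Mmp11 was at only 0.042 to 0.13, and in pair 2 Mmp17, Adam15 and Mmp28 were at only 0.026, 0.065 and 0.084. The 3 wt and the 3 flt3L-/- levels did not overlap for Adam11, Adamts14 and Mmp16, which were lower (5.77%, background 2.92%), and for none that was higher (background 3.53%). Over the 6 libraries these genes varied more than most, with a median ratio of the highest to the lowest level of 3.48 against 1.72 for all genes tested and 5.08 for ADAMTS genes.

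**Figure D2:**
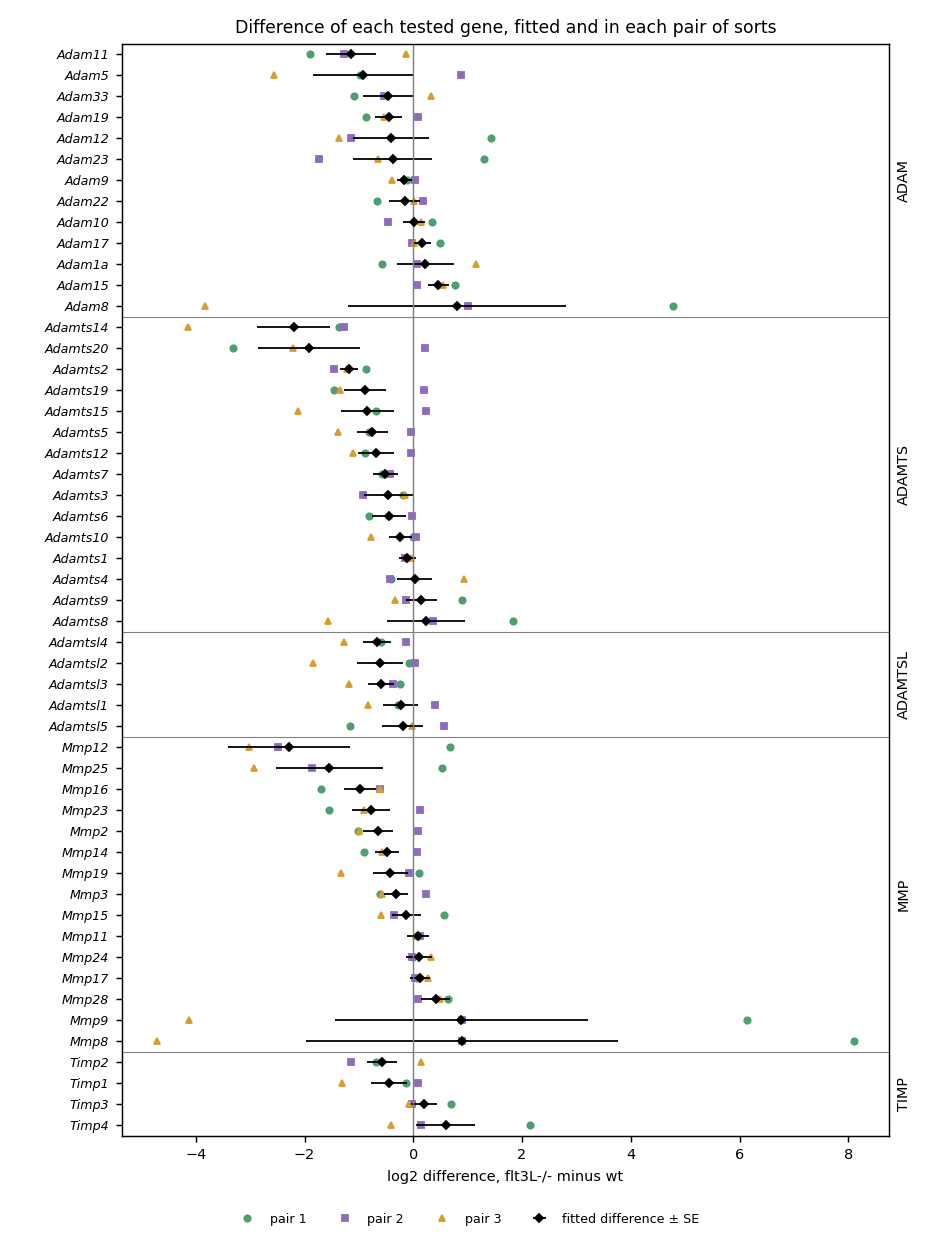
Log2 difference of flt3L-/- minus wt for each of the 52 tested genes, by family, with the fitted value and its standard error (black diamonds and bars) and the difference in each pair of sorts (coloured). Adamts14 has the lowest value among ADAMTS genes (−2.20), all 5 ADAMTSL values lie left of 0, and the pairs of Mmp8, Mmp9 and Adam8 lie far apart on both sides of 0.

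Adamts2, Adamts14 and Adamts3 cut the amino-terminal propeptide off fibrillar procollagens. Adamts2 is the main enzyme of this kind for type I procollagen. It lies on chromosome 11 from 50602084 to 50807573, and had 197, 177 and 23.7 CPM in wt pairs 1, 2 and 3 and 108, 64.7 and 10.1 CPM in flt3L-/-. The level was lower in flt3L-/- than in wt in every pair, but both libraries of 2017 were far below the 4 of 2016, so that the groups overlapped. The log2 differences within the pairs were −0.86, −1.45 and −1.22, and the fitted log2 fold change was −1.18 ± 0.16 (SE). The p-value of 0.000981 was the 6th smallest of all genes tested, and the adjusted p was 0.973 (edgeR). Over the edgeR alternatives the adjusted p ranged from 0.510 to 0.999, and it was 0.000109 with DESeq2. Without the sorting date in the fit, the log2 fold change was −1.12 ± 0.96 (SE) and the unadjusted p was 0.284 (edgeR). The study had called Adamts2 and Timp2 lower in flt3L-/- on these same libraries, so their direction here is not independent evidence. Neither call was reproduced by the edgeR fit used here.

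Adamts14 (chromosome 10, 61197112 to 61273438) is a closely related enzyme with the same substrates. It had 16.8, 23.5 and 48.5 CPM in wt and 6.41, 9.68 and 2.65 CPM in flt3L-/-. Every wt library was above every flt3L-/- library, and pair 3 was the farthest apart. The log2 differences were −1.38, −1.27 and −4.15, with a fitted value of −2.20 ± 0.68 (SE) and an unadjusted p of 0.0241 (edgeR quasi-likelihood test). Without pair 3 the fitted log2 fold change was −1.33, and over all alternatives the adjusted p ranged from 0.0622 (DESeq2) to 0.999 (edgeR). Unlike Adamts2, its 2 libraries of 2017 were not both low, since the wt library held the highest level of the 6 and the flt3L-/- library the lowest. Lymphocyte and NK cell markers had the same extremes, with a summed level of 138, 329 and 771 CPM in wt and 129 (pair 1), 318 (pair 2) and 105 CPM (pair 3) in flt3L-/-. Of the 8 genes of that list 6 were tested, 4 of them with a negative log2 fold change (median −1.16, and −0.50, −0.095 and −3.03 in the pairs), and their part in the difference of Adamts14 was not tested. Adamts3 was much scarcer (15 to 52 counts), with 1.63, 2.02 and 0.670 CPM in wt and 1.42, 1.02 and 0.594 CPM in flt3L-/-. It was lower in each pair with overlapping groups, and its fitted log2 fold change was −0.46 ± 0.44 (SE).

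**Figure D3:**
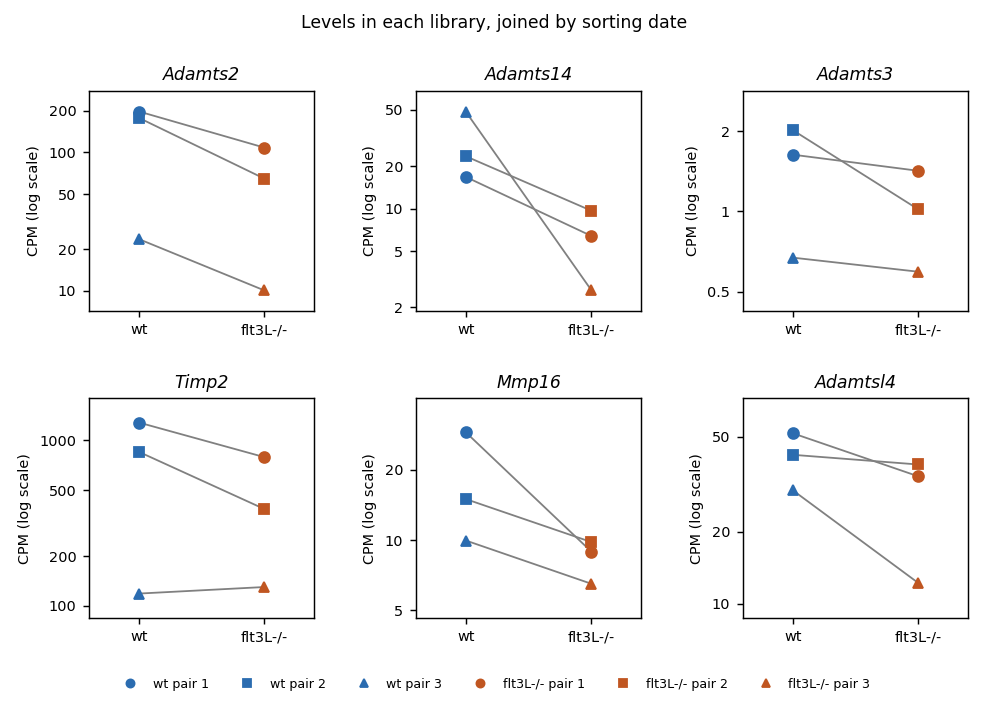
CPM (log axis) of Adamts2, Adamts14, Adamts3, Timp2, Mmp16 and Adamtsl4 in each library, with lines that join the wt and flt3L-/- libraries of a sorting date. Every line runs downward except that of Timp2 in pair 3 (119 and 129.9 CPM), and only Adamts14 and Mmp16 have all 3 wt points above all 3 flt3L-/- points.

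The proteases that cut aggrecan and versican, proteoglycans of the matrix, did not move as one group. Adamts1 (chromosome 16, 85793827 to 85803113) had 2694, 1725 and 1687 CPM in wt and 2455, 1558 and 1629 CPM in flt3L-/-. Each pair was close, pair 1 was highest in both groups, and the fitted log2 fold change was −0.11 ± 0.15 (SE). Adamts4 had 173, 96.2 and 83.1 CPM in wt and 130.1, 71.5 and 159 CPM in flt3L-/-, so the first 2 pairs were lower and the last was higher (log2 fold change 0.026 ± 0.32 SE). Adamts5, which lies next to Adamts1 on chromosome 16, had 29.7, 43.4 and 22.5 CPM in wt and 16.8, 42.1 and 8.55 CPM in flt3L-/-. It was all but equal in pair 2 and lower in pairs 1 and 3, with a fitted log2 fold change of −0.75 ± 0.29 (SE, unadjusted p = 0.0522, edgeR). Adamts9 and Adamts8 were higher in pair 1 (log2 differences 0.90 and 1.84) and lower in pair 3 (−0.33 and −1.58), and share 11.99% and 10.6% of their exon bases with other genes.

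Among the other ADAMTS genes, Adamts7 and Adamts12, which cut the cartilage matrix protein Comp, were lower in each pair. Adamts7 had 7.74, 7.72 and 5.62 CPM in wt and 5.17, 5.69 and 3.88 CPM in flt3L-/-, and its fitted log2 fold change was −0.52 ± 0.23 (SE). That of Adamts12 was −0.69 ± 0.33 (SE), and its pair 2 was all but equal (−0.053). Adamts10, which binds fibrillin microfibrils, had 133, 125 and 134 CPM in wt and 133, 129 and 78.0 CPM in flt3L-/-, and stood apart only in the flt3L-/- library of pair 3. Without that pair its log2 fold change was 0.021 instead of −0.25 ± 0.21 (SE). When the ADAMTS genes were divided by the zinc site, all 9 tested genes with the usual glycine had a negative log2 fold change (median −0.69, −2.20 to −0.25), against 3 of the 6 with another residue (median −0.042, −1.93 to 0.23). Among the 9, Adamts10 and Adamts19 were higher in pair 2 (0.044 and 0.19). A link between the site and the difference was not tested.

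All 5 ADAMTSL genes, whose products include ligands of fibrillin microfibrils, had negative fitted values, from −0.67 to −0.20, although that of Adamtsl5 was 0.28 without pair 1. Adamtsl4 (chromosome 3, 95676201 to 95687917) had 51.7, 42.0 and 29.8 CPM in wt and 34.2, 38.3 and 12.2 CPM in flt3L-/-. It was lower in each pair, least in pair 2, with overlapping groups and a log2 fold change of −0.67 ± 0.26 (SE, unadjusted p = 0.0498, edgeR). This p lay just under 0.05 and was 0.0502 with robust dispersions, 0.0545 with upper quartile factors and 0.247 without the sorting date, and without pair 3 the log2 fold change was −0.37. Adamtsl3 had 28.4, 27.4 and 12.999 CPM in wt and 24.0, 21.2 and 5.66 CPM in flt3L-/-, and both libraries of 2017 were below the 4 of 2016. Its fitted log2 fold change was −0.59 ± 0.24 (SE). Adamtsl2 had 31.7, 46.9 and 39.9 CPM in wt and 30.0, 47.6 and 11.1 CPM in flt3L-/-. It was close in pairs 1 and 2, and without pair 3 its log2 fold change was −0.028 instead of −0.61 ± 0.43 (SE). Adamtsl5 had 26.0, 20.3 and 12.7 CPM in wt and 11.6, 30.1 and 12.5 CPM in flt3L-/-, with a lower level in pair 1, a higher one in pair 2 and nearly the same in pair 3.

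Mmp2, which degrades gelatin and basement membrane collagen, lies on chromosome 8 from 92827291 to 92853420. It had 684, 544 and 363 CPM in wt and 339, 575 and 182 CPM in flt3L-/-. Pairs 1 and 3 were lower by about 1 on the log2 scale (−1.01 and −0.999), pair 2 was not (0.081), and the fitted log2 fold change was −0.65 ± 0.27 (SE, unadjusted p = 0.0649, edgeR). Mmp14, the membrane-type enzyme that activates the Mmp2 proenzyme together with Timp2, had 148, 104 and 78.0 CPM in wt and 78.7, 109 and 52.2 CPM in flt3L-/-. The same pairs were lower, and its log2 fold change was −0.48 ± 0.22 (SE). Mmp23 followed the same pattern over the pairs, with 72.6, 43.1 and 30.5 CPM in wt and 24.8, 47.2 and 16.2 CPM in flt3L-/-, and a log2 fold change of −0.78 ± 0.35 (SE). Mmp3 had 261, 100.5 and 161 CPM in wt and 169.6, 119 and 108 CPM in flt3L-/- (log2 fold change −0.32 ± 0.22 SE), again higher only in pair 2.

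Mmp16, another membrane-type enzyme that can activate the Mmp2 proenzyme, lies on chromosome 4 from 17852893 to 18119145. It had 29.0, 14.98 and 9.94 CPM in wt and 8.92, 9.80 and 6.49 CPM in flt3L-/-. The groups did not overlap, although the wt library of pair 3 (9.94 CPM) was hardly above the flt3L-/- library of pair 2 (9.80 CPM). The log2 differences were −1.69, −0.61 and −0.61, with a fitted value of −0.97 ± 0.29 (SE) and an unadjusted p of 0.0223 (edgeR). Without pair 1 the log2 fold change was −0.61 (unadjusted p = 0.0880, edgeR). At the zinc site, Mmp14 and Mmp16 differed at 4 of 33 bases. The other membrane-type genes varied. Mmp25 was scarce and passed the filter through wt libraries alone, with 0.583, 1.59 and 1.12 CPM in wt and 0.874, 0.382 and 0.0792 CPM in flt3L-/-, higher in pair 1 and lower in pairs 2 and 3 (log2 fold change −1.55 ± 0.98 SE). Mmp17 was close to constant (11.8 to 14.4 CPM over all libraries), Mmp24 lay between 5.10 and 7.48 CPM, and Mmp15 was higher in pair 1 and lower in pairs 2 and 3.

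Mmp8, the neutrophil collagenase, Mmp9, a gelatinase stored in neutrophil granules, and Adam8, a leukocyte surface protease, varied most widely, and were picked for description after their values had been seen. Mmp8 had 0.0778, 16.1 and 48.0 CPM in wt and 42.8, 30.0 and 1.74 CPM in flt3L-/-. Mmp9 had 0.117, 13.2 and 6.15 CPM in wt and 13.6, 24.5 and 0.277 CPM in flt3L-/-. Adam8 had 1.09, 31.3 and 38.1 CPM in wt and 31.7, 63.1 and 2.61 CPM in flt3L-/-. The wt library of pair 1 and the flt3L-/- library of pair 3 were the lowest for each of the 3 genes, and Mmp8 and Mmp9 had 2 and 3 counts in the former. The differences therefore ran in opposite directions, with log2 differences of Mmp8 of 8.11 in pair 1, 0.90 in pair 2 and −4.72 in pair 3, and a fitted value of 0.90 ± 2.87 (SE).

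The neutrophil markers S100a8, S100a9, Retnlg, Ly6g, Csf3r and Cxcr2 moved with these genes. Their summed level was 1.90, 97.2 and 83.5 CPM in wt and 129 (pair 1), 213.5 (pair 2) and 6.49 CPM (pair 3) in flt3L-/-, so the same 2 libraries were lowest. Of the 6 markers 5 passed the filter, and in these 2 libraries Ly6g had 0 counts, with Retnlg at 0 and 6 and S100a8 at 6 and 15 counts. The macrophage and monocyte markers were lowest there too (50.2 and 92.3 CPM, against 293 to 1731 CPM in the other 4). Mmp12, the macrophage elastase, had 1 count in wt pair 1, 40 and 32 counts in wt pairs 2 and 3, and 2 to 5 counts in flt3L-/-. The part of these leukocyte markers in the differences of Mmp8, Mmp9, Adam8 and Mmp12 was not tested.

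**Figure D4:**
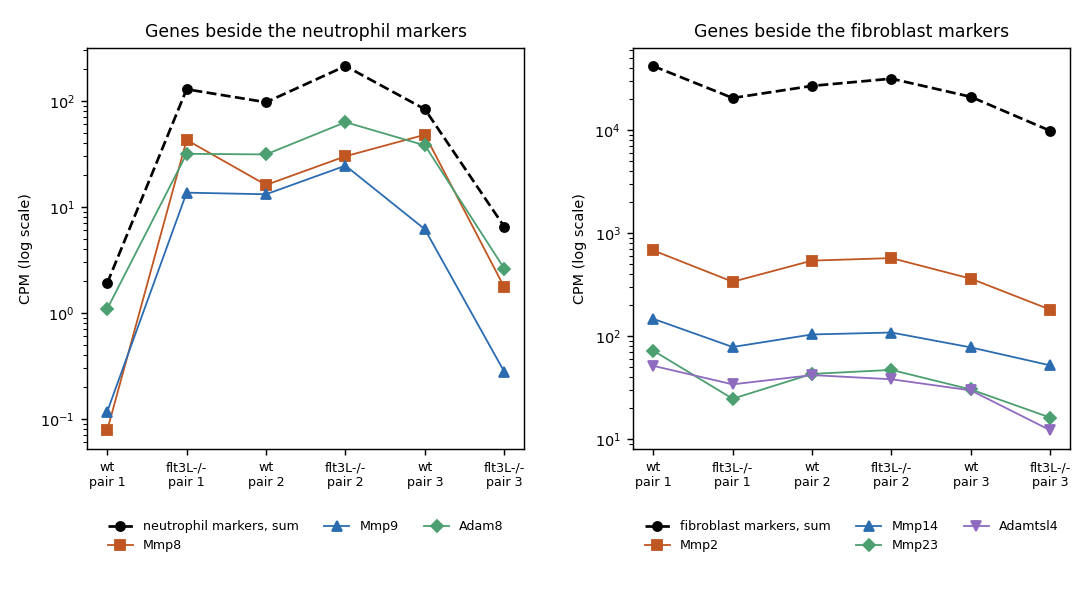
CPM (log axis) in the 6 libraries of Mmp8, Mmp9 and Adam8 beside the summed neutrophil markers (left), and of Mmp2, Mmp14, Mmp23 and Adamtsl4 beside the summed fibroblast markers (right). On the left, wt pair 1 and flt3L-/- pair 3 are lowest for every line, with marker sums of 1.90 and 6.49 CPM, and on the right, wt pair 1 is highest and flt3L-/- pair 3 lowest, with marker sums of 42148 and 9897 CPM.

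Fibroblast markers and those of pericytes and smooth muscle moved with some of the matrix proteases, and not with others such as Adamts4, Mmp15 and Mmp17. The summed level of the fibroblast markers was 42148, 27056 and 21166 CPM in wt and 20632 (pair 1), 31784 (pair 2) and 9897 CPM (pair 3) in flt3L-/-. It was therefore lower in flt3L-/- in pairs 1 and 3 and higher in pair 2, as were the levels of Mmp2, Mmp14, Mmp23 and Mmp3. All 8 markers of the list had a negative fitted log2 fold change (median −0.65). The summed level of the pericyte and smooth muscle markers followed the same pattern. It was 899.7, 441 and 493 CPM in wt and 553 (pair 1), 493 (pair 2) and 274 CPM (pair 3) in flt3L-/-. Of these 8 markers, 7 had a negative log2 fold change (median −0.46). Single markers did not all follow the sums, since 3 of the 8 in each list were lower in each of the 3 pairs (37.5%, background 11.5%). The flt3L-/- library of pair 3, with the lowest sum of both lists, had the lowest level of 27 of the 52 genes, among them 10 of 15 ADAMTS, 4 of 5 ADAMTSL and 7 of 15 MMP genes. The wt library of pair 1, with the highest sums, had the highest level of 22 of them. Such counts were not made over all genes tested, so they have no background and show nothing particular to these families. Adamts2 and Adamts14 were lower in pair 2 as well (−1.45 and −1.27), as were those 3 markers of each list, although both sums were higher there. The part of either cell type in these differences was not tested. Endothelial markers ran the other way, with the highest sum in the flt3L-/- library of pair 3 (12013 CPM) and the lowest in wt pair 1 (7489 CPM).

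Among the ADAM genes, Adam15, a membrane protease of endothelial and other cells, had 554, 684 and 854 CPM in wt and 947, 715 and 1242 CPM in flt3L-/-. It was higher in each pair, with overlapping groups and a log2 fold change of 0.46 ± 0.19 (SE, unadjusted p = 0.0648, edgeR), and it shares 20.6% of its exon bases with another gene, which unstranded reads cannot separate. Adam10, the sheddase of Notch receptors, had 242, 289 and 270.4 CPM in wt and 308, 209 and 299 CPM in flt3L-/-. The pairs went both ways, the fitted log2 fold change was 0.0082 ± 0.20 (SE), and its sign changed with the scaling (−0.031 with library size only). Adam17, the sheddase of tumour necrosis factor, had 183 to 260.1 CPM in wt and 211 to 262 CPM in flt3L-/- (log2 fold change 0.16 ± 0.16 SE). Adam9 had 142 to 156 CPM in wt and 107 to 147 CPM in flt3L-/- (−0.16 ± 0.14 SE).

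Adam11 was scarce, with 7.54, 3.80 and 1.97 CPM in wt and 1.97, 1.53 and 1.78 CPM in flt3L-/-. The groups were told apart by less than 0.01 CPM between wt pair 3 and flt3L-/- pair 1, and the log2 fold change was −1.15 ± 0.46 (SE, unadjusted p = 0.0562, edgeR). Adam19, a sheddase with a role in heart development, had 19.0, 16.8 and 9.98 CPM in wt and 10.3, 17.7 and 6.81 CPM in flt3L-/- (log2 fold change −0.45 ± 0.25 SE), with 10.1% of its exon bases shared with other genes. The 4 tested ADAM genes without the zinc site (Adam5, Adam11, Adam22 and Adam23) had negative log2 fold changes (median −0.65), against 4 of the 9 with it (median 0.0082). These 4 were scarce, at most 10.4 CPM in any library.

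The inhibitors differed from each other. Timp3, which binds to the matrix and also blocks ADAM17, had 4028, 3371 and 5083 CPM in wt and 6519.7, 3303 and 4804 CPM in flt3L-/-. It was higher in pair 1 and nearly equal in pairs 2 and 3, with a log2 fold change of 0.19 ± 0.23 (SE), and it was −0.056 without pair 1. Timp3 lies within the gene Syn3, which shares 21.3% of its exon bases. Timp4, the inhibitor known from heart tissue, had 138, 220.1 and 413 CPM in wt and 608, 244 and 309.9 CPM in flt3L-/-. Its log2 differences were 2.14, 0.15 and −0.41, and its fitted log2 fold change of 0.60 ± 0.54 (SE) was −0.13 without pair 1. Timp1 had 21.1, 11.2 and 24.8 CPM in wt and 19.2, 11.9 and 9.89 CPM in flt3L-/-, and differed mainly in pair 3 (log2 fold change −0.45 ± 0.33 SE).

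Timp2, which inhibits MMPs and takes part in the activation of Mmp2, lies on chromosome 11 from 118301069 to 118355740. It had 1279.5, 851 and 119 CPM in wt and 791, 385 and 129.9 CPM in flt3L-/-. The 2 libraries of 2017 were far below the 4 of 2016, and flt3L-/- was lower in pairs 1 and 2 and slightly higher in pair 3. The log2 differences were −0.69, −1.15 and 0.13, and the fitted log2 fold change was −0.57 ± 0.28 (SE, unadjusted p = 0.0983, edgeR). Without pair 3 the log2 fold change was −0.92, and without pair 2 it was −0.30.

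Several of these genes also differed between sorting dates. The mean level over the 4 libraries of 2016 was 8.12 times that over the 2 libraries of 2017 for Adamts2, 6.65 times for Timp2 and 2.71 times for Adamtsl3, the 3 genes with the smallest p of the date test (8.8e-05, 0.00151 and 0.00822, edgeR). None of the 52 genes had an adjusted p under 0.05 in this test (0 of 13475 genes, 0%, smallest adjusted p 0.501, that of Adamts2). At an unadjusted p under 0.05 there were 9 of the 52 genes (17.3%) against 8.28% of all genes. DESeq2's likelihood ratio test called 5 of them (389 genes in all, 2.89%), namely Adamts2 (adjusted p = 1.3e-25), Timp2 (1.4e-10), Adamtsl3 (0.00892), Adamts1 (0.0175) and Adamts5 (0.0237). Each date held 1 library of each group. What else changed between the sorts of 2016 and 2017 is not given in the sources used here, and collections of mice, sorts and libraries of a date cannot be told apart.

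The genes that work with these enzymes were taken from 5 lists. Of 12 tested substrates of ADAMTS proteases, all had a negative fitted log2 fold change (median −0.84), and 5 (41.7%), Col1a1, Col1a2, Col3a1, Fbn1 and Comp, had an unadjusted p under 0.05. Over all genes tested, 6742 of 13475 had a negative value, and 3.59% had such a p, with 2.49% lower and 1.11% higher. Col3a1, the chain of type III collagen and the most abundant of them, had 2191, 2552 and 1008 CPM in wt and 1302, 1667 and 308 CPM in flt3L-/-. It was lower in each pair and overlapped between the groups, with a log2 fold change of −1.02 ± 0.27 (SE, unadjusted p = 0.0141, edgeR). Fbn1, the main protein of microfibrils, had 354, 351 and 119.7 CPM in wt and 250.3, 162 and 37.0 CPM in flt3L-/-, with a log2 fold change of −1.10 ± 0.26 (SE, unadjusted p = 0.00873, edgeR). Fbn1 shares 20.1% of its exon bases with Gm9913. Like Adamts2, both genes were lower in 2017 than in 2016, 2.93 times for Col3a1 and 3.57 times for Fbn1. Col1a1 and Col1a2 are also in the list of fibroblast markers. The study had reported sets of collagen and extracellular matrix genes as lower in flt3L-/- on these same libraries. For the matrix genes among the substrates, the direction here is therefore not independent evidence.

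In the list of other metzincins and procollagen processing, none of 9 tested genes had an unadjusted p under 0.05, and 8 had a negative fitted value (median −0.52). The smallest p values were those of Pcolce, an enhancer of procollagen C-proteinase and the most abundant gene of the list (log2 fold change −0.61 ± 0.27 SE, unadjusted p = 0.0756, edgeR), and Papln (−0.54 ± 0.33 SE). Pcolce was higher in pair 2, as Mmp2 was. Of 14 tested activators and inhibitors of metalloproteinases, 1 had an unadjusted p under 0.05 (7.14%, background 3.59%). This was Plaur, the receptor of urokinase, with 85.8, 72.7 and 95.6 CPM in wt and 101, 103 and 203 CPM in flt3L-/-. Every flt3L-/- library was above every wt library, and the log2 fold change was 0.61 ± 0.20 (SE, unadjusted p = 0.0308, edgeR). The plasminogen activator Plat was the most abundant of this list (0.25 ± 0.23 SE), and Lrp1, which clears proteases by endocytosis, had the next smallest p (−0.77 ± 0.37 SE).

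Of 7 tested partners that carry ADAM10 and ADAM17 to the cell surface, 6 had a positive fitted value (median 0.24) and 1 had an unadjusted p under 0.05 (14.3%, background 3.59%). This was Rhbdf2, the iRhom2 partner of ADAM17, with 56.2, 67.7 and 97.0 CPM in wt and 111, 82.3 and 147 CPM in flt3L-/-. It was higher in each pair, with a log2 fold change of 0.62 ± 0.18 (SE, unadjusted p = 0.0181, edgeR), and the most abundant partner, Rhbdf1, was at 0.075 ± 0.12 (SE). Tspan14 was at 0.37 ± 0.17 (SE). Of 24 tested substrates shed by ADAM10 and ADAM17, 13 had a negative and 11 a positive fitted value (median −0.011), and 2 had an unadjusted p under 0.05 (8.33%, background 3.59%). Tnf (6.45, 7.26 and 9.65 CPM in wt and 7.87, 11.6 and 24.3 CPM in flt3L-/-) and Icam1 (769, 650.2 and 668 CPM in wt and 1049, 789 and 1108 CPM in flt3L-/-) were higher in each pair, with unadjusted p of 0.0391 and 0.0312 (edgeR). Icam1 shares 11.7% of its exon bases with another gene. The most abundant substrate, App, was at 0.076 ± 0.17 (SE).

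The number of small p-values depended most on pair 2. Without it, 13 of 49 tested genes (26.5%) had an unadjusted p under 0.05, 12 of them lower, against 7.47% of all genes. Without pair 1 there were 4 of 52 (7.69%, background 2.57%) and without pair 3 there were 5 of 49 (10.2%, background 1.87%). No gene of these families had an adjusted p under 0.05 with any pair left out.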

How the data were processed

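The deposited values are raw counts per gene, made by the authors from unstranded single-end reads (SMART-Seq v4) that were mapped to mm10 with STAR 2.5.2a and counted with QuasR on Ensembl exons. Reads with several equally good positions were assigned at random, so counts of near-identical genes are uncertain. Exons, biotypes and shared exon bases came from GENCODE M21 (GRCm38). Genes annotated as protein-coding that exceeded 1 CPM in 2 or more of the 6 libraries were tested in edgeR 4.0.16 (R 4.3.3, TMM, glmQLFit and glmQLFTest with legacy = TRUE, Benjamini-Hochberg) with genotype and sorting date as terms, 2 residual degrees of freedom and a common dispersion of 0.0978. Standard errors came from the fold change and the F statistic, and differences within pairs used a prior count of 2. With the date in the fit, p-values rest on how the difference between the groups varied over the pairs of pools, moderated with the spread of all genes. The study sorted in pairs by date, and deviations from the group means correlated at 0.180, 0.104 and 0.116 within dates and at −0.354 to 0.247 across dates, so the pairing rests on the study's design. The script was tested on simulated data. Alternatives were 3 normalizations, DESeq2 1.42.0, 2 dispersion settings, 3 filters, all biotypes, no date term and each pair left out.

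The genes described and all lists were chosen with earlier results of these data known. Named are Adamts2, Adamts14 and Timp2, the 3 genes of each family with the highest level per kilobase and the 3 with the smallest genotype p, those with an unadjusted p under 0.05, the 3 with the smallest date p, and in each list of partners the most abundant gene and the 2 with the smallest p. Other members are named for counts, ranges or roles, after their values were seen. Translated GENCODE coding sequences were used to find the zinc site in place of RefSeq proteins.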

Additional observations from a re-analysis of the deposited data

How the results depend on the processing

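The fits have 2 residual degrees of freedom, 3 pools per group stand behind every value, and levels near 3 counts (0.109 to 0.127 CPM) carry large counting error. Of the counts of genes and family medians, 136 values under the alternatives stayed within 1.5 times (counts) or within the spread between pairs (medians), and 17 did not. Of the fold changes of named genes, 309 kept their direction and side of the threshold, 12 changed sign and 1 crossed the threshold. DESeq2 called 1 gene between the groups (Adamts2, log2 fold change −1.18) and 5 between dates, and gave an unadjusted p under 0.05 to 12 (11 lower, 1 higher). Without the filter on low counts this number was 9 (8 lower, 1 higher), with the ADAM median at 0.013, and with filterByExpr that median was −0.28. With upper quartile factors 1 higher gene had such a p. With a pair left out, the number of such genes ranged from 4 to 13 (4 to 12 lower, 0 to 1 higher), the number called between dates from 0 to 2, the ADAM median from −0.18 to 0.13 and the TIMP median from −0.32 to 0.15. Both genes called between dates without pair 2 were Adamts2 and Timp2. The MMP median ranged from −0.46 to 0.019 and was −0.050 without the filter, and the median over all members was −0.21 without the filter and −0.19 without pair 3. Among named genes, the sign changed for Adam10 (−0.031 with library size only, −0.0025 with filterByExpr, −0.0028 with more than 1 CPM in all libraries, −0.0022 with all biotypes, −0.16 to 0.22 with a pair left out) and Adamts4 (−0.012 with library size only, −0.42 to 0.26 with a pair left out), and with a pair left out for Adamts10 (−0.41 to 0.021), Adamtsl5 (−0.62 to 0.28), Timp3 (−0.056 to 0.33) and Timp4 (−0.13 to 1.14). The causes were not tested. Without the replicate block (no date term), 4 of the 52 genes had an unadjusted p under 0.05 and 0 were called, as with it. Under this fit without the block, Adamts14 and Mmp16 stayed among those genes, and Adamts2 (unadjusted p = 0.284, edgeR) and Adamtsl4 (unadjusted p = 0.247, edgeR) left. Adam11 (unadjusted p = 0.0357, edgeR) was among the genes that entered, and no adjusted call changed.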
